A study of Rattus norvegicus with 18 samples.

Results

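The 10 genes described here mark the epithelium of the choroid plexus: *Ttr*, *Kl*, *Folr1*, *Aqp1*, *Clic6*, *Otx2*, *Cldn2*, *Slc4a5*, *Prlr* and *Sostdc1*. They were found by gene symbol, and all 10 were among the 32623 genes listed for each pup. RNA from the prefrontal cortex (PFC) of 18 Sprague Dawley rat pups at postnatal day 14 was sequenced, with 6 pups in each of 3 groups. In the SAL group the dams received saline only. In the PNO (postnatal oxycodone) group they were gavaged with oxycodone (oxy), an opioid pain drug, at 15 mg/kg/day from parturition onward, so that exposure of the pups began after birth. In the IUO (in utero oxycodone) group dosing began at 10 mg/kg/day, reached 15 mg/kg/day before mating and went on through gestation and nursing, so that exposure of the pups covered the time before and after birth. The pups carried no transgene, and the dam of each pup is not given in the labels, so that p-values measure the spread between pups and littermates cannot be told from pups of different dams.

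The choroid plexus is a fringe of tissue inside the brain ventricles whose epithelial cells secrete cerebrospinal fluid and carry hormones, vitamins and ions from blood to brain. It is not part of the PFC. Its epithelium transcribes transthyretin at a very high rate, which makes *Ttr* a sensitive mark of choroid plexus RNA in dissected brain tissue, and in bulk RNA a larger number of such cells and more RNA per cell cannot be told apart. The comparison asks whether these genes differ between exposure groups, and how far they vary together from pup to pup.

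A promoter window of 300 bases (around the transcription start, most of it upstream, from RefSeq, GRCr8) was held in the sequence table for 5 of the 10 genes, *Ttr*, *Kl*, *Aqp1*, *Slc4a5* and *Prlr*. Those of *Kl*, a gene that varied closely with *Ttr*, and of *Aqp1*, one that did so less, are shown, both on the plus strand, *Kl* at chr12:5325753-5326052 and *Aqp1* at chr4:85812534-85812833. Capitals mark the only match among 3 motifs searched on both strands.
Kl: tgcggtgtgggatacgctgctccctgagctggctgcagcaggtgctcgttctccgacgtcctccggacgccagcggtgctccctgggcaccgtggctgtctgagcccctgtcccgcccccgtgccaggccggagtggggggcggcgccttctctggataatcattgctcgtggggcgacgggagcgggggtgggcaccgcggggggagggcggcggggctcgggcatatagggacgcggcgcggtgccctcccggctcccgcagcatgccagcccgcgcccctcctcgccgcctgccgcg
Aqp1: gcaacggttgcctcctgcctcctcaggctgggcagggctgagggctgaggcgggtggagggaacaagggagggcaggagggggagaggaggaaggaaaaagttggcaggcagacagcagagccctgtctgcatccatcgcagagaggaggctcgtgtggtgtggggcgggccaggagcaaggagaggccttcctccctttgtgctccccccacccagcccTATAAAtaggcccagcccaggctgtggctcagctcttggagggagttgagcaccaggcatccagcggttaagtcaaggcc
The motifs were TAATCC, a core bound by Otx-type homeodomain proteins, GTAAACA, a forkhead core, and TATAAA, the TATA box. The TATA box lies 30 bases before the start of *Aqp1* (position -30), and TATAAA occurs in 14.2% of the 33469 promoter windows in the table. TAATCC occurs in 7.17% and GTAAACA in 3.78% of those windows, and neither occurs in the windows of the 5 genes. The absence of these letters from 300 bases says nothing of the factors elsewhere.

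Libraries held between 18381819 and 26084780 expected counts (reads per gene, with those matching several genes divided by estimation). Tissue identity was checked with 10 markers of cortical excitatory neurons, led by *Slc17a7*, *Nrn1* and *Neurod6*, whose summed level lay between 684.3 and 1568.86 TPM (transcript abundance scaled to gene length and library). The summed level of 10 striatal neuron markers lay between 180.95 and 1685.65 TPM and was above the cortical sum in 4 pups, SAL replicates 1 and 3 and IUO replicates 1 and 2. One pup stood apart for the genes described here: 9 of the 10 had their highest level in PNO replicate 1, the exception being *Otx2*. Fold changes of the 10 genes and counts of list genes that involve PNO are given with it. They are also given without it where the fold itself, not its log2, moved by over 1.5 times, the sign changed or, for a list, genes were counted again.

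*Ttr*, which encodes the thyroxine and retinol carrier of the cerebrospinal fluid, ran through nearly the whole range of expression in this tissue. In SAL pups 1 to 6 its level was 527.06, 27.98, 1347.8, 69.38, 6.56 and 15.17 TPM. In PNO pups it was 2655.83, 284.74, 1168.1, 12.16, 3.58 and 22.47 TPM. In IUO pups it was 3.51, 90.56, 28.0, 173.14, 0.33 and 605.13 TPM. Each group thus held pups with hardly any *Ttr* and pups in which it was among the abundant transcripts, and the groups overlapped. The lowest pup had 3 expected counts of *Ttr* and the highest 24935. By TPM, *Ttr* was the 23rd most abundant gene in PNO replicate 1 and stood at place 16567 in IUO replicate 5. The other 9 genes together summed to between 3.28 TPM (SAL replicate 5) and 51.04 TPM (PNO replicate 1), so that *Ttr* made up 98.11% of the summed TPM of all 10 in PNO replicate 1 and 4.2% in IUO replicate 5.

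*Folr1* encodes the folate receptor that carries folate into the cerebrospinal fluid. Its level in SAL ran from 0.24 to 9.52 TPM (median 2.16), in PNO from 0.58 to 16.68 TPM (median 1.75) and in IUO from 0.25 to 5.83 TPM (median 2.29). *Kl* encodes klotho, a coreceptor for fibroblast growth factor 23. Its level ran from 0.05 to 1.56 TPM in SAL (median 0.16), from 0.02 to 2.84 TPM in PNO (median 0.15) and from 0.07 to 0.60 TPM in IUO (median 0.20). For both genes SAL replicate 3 was the highest SAL pup, PNO replicate 1 the highest PNO pup and IUO replicate 6 the highest IUO pup, and the same 3 pups led their groups for *Ttr*.

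*Clic6*, a member of the chloride intracellular channel family, ran from 0.13 to 3.54 TPM in SAL (median 0.57), from 0.05 to 7.87 TPM in PNO (median 0.51) and from 0.04 to 1.93 TPM in IUO (median 0.39). *Cldn2*, a claudin that forms cation pores in the tight junctions of this epithelium, ran from 0 to 1.28 TPM in SAL (median 0.11), from 0.03 to 3.47 TPM in PNO (median 0.23) and from 0 to 0.62 TPM in IUO (median 0.20). No *Cldn2* read was counted in SAL replicate 5 or IUO replicate 1, where a count of 0 allows up to 3 counts, or 0.126 and 0.161 CPM (counts scaled to library size with TMM normalisation), counting error only.

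The water channel *Aqp1*, which sits in the apical membrane of the epithelium, spread less. Its medians were 2.36 TPM in SAL, 2.15 TPM in PNO and 2.38 TPM in IUO, with all 18 pups between 0.74 and 5.73 TPM. IUO replicate 5, the pup with the least *Ttr*, had 5.24 TPM of *Aqp1*, close to the 5.73 TPM of PNO replicate 1. In the same pup the summed level of 9 markers of meningeal fibroblasts, led by *Col3a1*, *Dcn* and *Col1a1*, was 202.16 TPM, the highest of the 18 (range of the others 50.06 to 165.43 TPM), and its part in the *Aqp1* value was not tested. *Slc4a5*, a sodium bicarbonate cotransporter of the apical membrane, lay between 0.34 and 1.51 TPM in 17 pups and at 3.74 TPM in PNO replicate 1.

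*Otx2*, the homeodomain transcription factor needed to form and maintain the choroid plexus, did not follow *Ttr* across the 18 pups. It was highest in PNO replicate 5 at 2.99 TPM, a pup with 3.58 TPM of *Ttr*, and next highest in SAL replicate 2 at 2.08 TPM. Its expected count was between 0.5 and 26.5 and was not a whole number in 10 of 18 pups, so that reads were shared with another gene and its values are uncertain. *Prlr*, the prolactin receptor, was the least abundant of the 10 by mean TPM, between 0.06 and 0.82 TPM, or 1 to 24 counts. *Sostdc1*, a secreted antagonist of bone morphogenetic protein and Wnt signalling, had a median of 1.30 TPM in SAL, 1.92 TPM in PNO and 0.48 TPM in IUO. Of the 6 PNO pups, 5 had between 1.70 and 2.09 TPM of *Sostdc1* and PNO replicate 1 had 8.46 TPM, and of the 6 IUO pups, 5 had between 0.30 and 0.81 TPM and IUO replicate 6 had 2.95 TPM.

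**Figure D1:**
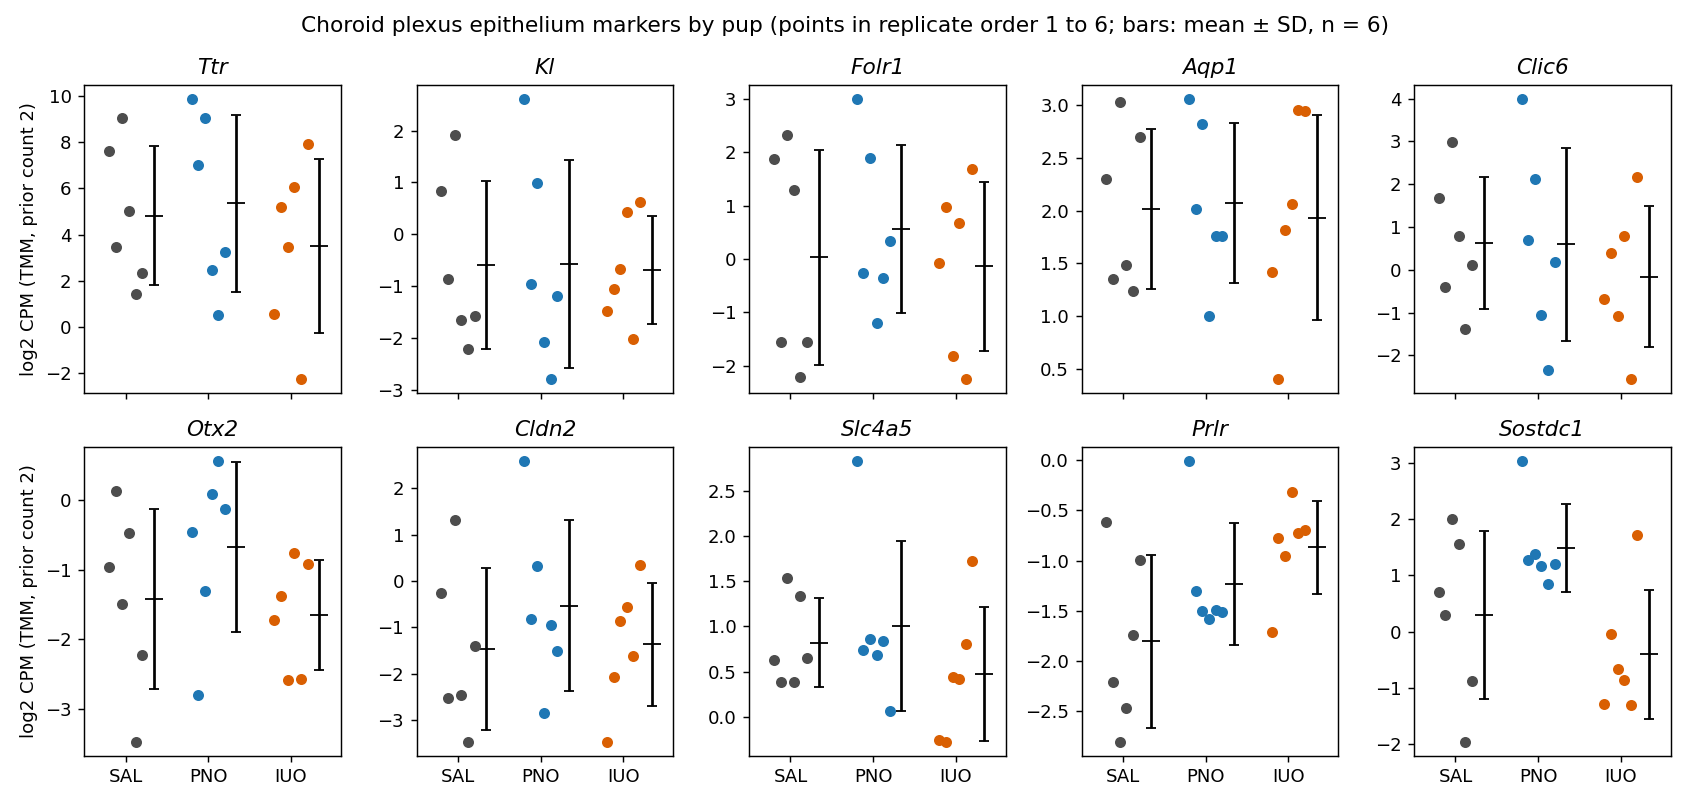
Level of each of the 10 genes by pup, as log2 CPM (vertical axis) in SAL, PNO and IUO, with points in order of replicate number and bars for the mean ± SD of 6 pups. The groups overlap for every gene, and PNO replicate 1, the leftmost blue point, is the highest pup for 9 of the 10.

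The SD of log2 CPM over the 18 pups was 3.43 for *Ttr*, the 15th largest of the 15703 genes tested, against a median of 0.26 over all of them. It was between 1.51 and 1.77 for *Clic6*, *Folr1*, *Cldn2* and *Kl*, 1.36 for *Sostdc1*, 1.14 for *Otx2*, and between 0.74 and 0.79 for *Aqp1*, *Prlr* and *Slc4a5*. Group explained 5.54% of the variance of *Ttr* and 0.128% of that of *Kl*, against a median of 11.7% over all genes, and 34.6%, 28.9% and 14.2% of that of *Sostdc1*, *Prlr* and *Otx2*.

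Comparing the exposure groups, none of the 10 genes was called at an adjusted p under 0.05 in any comparison (edgeR's quasi-likelihood test, Benjamini-Hochberg adjustment over 15703 genes, all 10 tested). Over all genes tested, the share called was 0% in both comparisons with SAL and 0.0637% in IUO against PNO (0.0446% when a change of 1.5-fold was also asked). At an unadjusted p under 0.05 the counts were 0, 0 and 1 of the 10, where 4.5%, 6.88% and 15.3% of all genes passed. By direction, higher and lower, these shares were 1.89% and 2.6% in PNO against SAL, 3.02% and 3.87% in IUO against SAL, and 6.14% and 9.14% in IUO against PNO. DESeq2 called none of the 10 in the 3 comparisons, and 0.00637%, 0.312% and 2.78% of all genes. Limma-voom called 0, 0 and 1 of the 10, and 0%, 0.274% and 12.9% of all genes, so that its 1 call is near the share of all genes. No gene of the 10 had groups without overlap, as 0.108%, 0.745% and 1.66% of all genes did. The 3 comparisons share their groups in pairs, so that their values for a gene are not independent.

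In PNO against SAL, the fitted log2 fold changes of all 10 genes were above 0, with a median of 0.67 against 0.003 over all genes, and none passed the test. The value was smaller than its SE for *Ttr*, *Kl*, *Folr1*, *Aqp1* and *Clic6*. That of *Ttr* was 1.05 ± 1.49 (SE, adjusted p = 0.92), from means of 267.7 ± 384.4 CPM in PNO and 129.2 ± 208 CPM in SAL (SD, n = 6). *Cldn2* had 1.27 ± 1.01 and *Sostdc1* 0.93 ± 0.66 (both adjusted p = 0.912). The direction rested on PNO replicate 1. Without it the value turned below 0 for 6 of the 10, to -0.87 for *Kl*, -0.71 for *Clic6*, -0.52 for *Folr1*, -0.31 for *Cldn2*, -0.24 for *Slc4a5* and -0.19 for *Aqp1*, that of *Ttr* was 0.06, that of *Sostdc1* 0.39 and that of *Prlr* 0.14. The median of the 10 was then -0.22. Markers of oligodendrocytes lay on the same side of 0 as the 10 genes in this comparison, 10 of 10 above 0 with a median of 0.72 (0.50 without PNO replicate 1), and their part was not tested. Without SAL replicate 3 it was 2.42 for *Ttr*, 1.46 for *Kl*, 1.55 for *Clic6* and 2.53 for *Cldn2*. With limma-voom, which weights pups by quality, 5 of the 10 were below 0, *Ttr* among them (-0.95).

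In IUO against SAL, 8 of the 10 had a log2 fold change below 0, with a median of -0.59 against -0.007 over all genes. The 10 oligodendrocyte markers were all below 0 here too, with a median of -0.605, and their part was not tested. *Ttr* had -1.11 ± 1.495 (SE, adjusted p = 0.985) and *Clic6* -0.79 ± 1.00 (adjusted p = 0.979). Without SAL replicate 3, the SAL pup with the most *Ttr*, the value was above 0 for *Ttr* (0.26), *Clic6* (0.057), *Kl* (0.32) and *Cldn2* (0.88). Without IUO replicate 6, the IUO pup with the most *Ttr*, it was -2.48 for *Ttr*, -1.64 for *Clic6* and -1.71 for *Sostdc1*. *Aqp1* was at 0.001 ± 0.44. *Prlr* had the lowest p of the 10 in this comparison, at 0.97 ± 0.48 (adjusted p = 0.748). By limma-voom it was 1.66 (adjusted p = 0.0671). The 6 IUO pups had 0.16 to 0.56 TPM of *Prlr* and the 6 SAL pups 0.06 to 0.49 TPM, and all 6 IUO pups lay above the SAL median of 0.17 CPM. The exact two-sided permutation test of that difference gave p = 0.0476 over 924 assignments of the 12 pups, not adjusted for the 10 genes or the other comparisons.

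In IUO against PNO, 9 of the 10 were below 0, *Prlr* being the exception at 0.32 ± 0.46, with a median of -1.26 against -0.001 over all genes. Without PNO replicate 1 the median was -0.07, with 7 below 0 and 3 above. None of the 10 then passed an unadjusted p under 0.05, where 8.44% of all genes passed as higher and 12.9% as lower. *Sostdc1*, the gene that passed an unadjusted p with all 18 pups, had means of 0.953 ± 1.12 CPM in IUO and 3.16 ± 2.41 CPM in PNO (SD, n = 6), and 5 of 6 IUO pups lay below all 6 PNO pups. Its log2 fold change was -1.73 ± 0.68 (SE, adjusted p = 0.241). Its exact permutation p was 0.013, and its log2 fold change was -1.20 (adjusted p = 0.292) without PNO replicate 1 and -2.65 (adjusted p = 0.128) without IUO replicate 6. Limma-voom gave -1.89 (adjusted p = 0.0429). *Ttr* had -2.16 ± 1.54 (adjusted p = 0.519), -1.17 without PNO replicate 1 and -3.53 (adjusted p = 0.356) without IUO replicate 6. *Clic6* had -1.495 ± 0.99, *Cldn2* -1.66 ± 1.02 and *Otx2* -1.38 ± 0.70, with adjusted p of 0.489, 0.45 and 0.357. Without IUO replicate 6 *Clic6* was at -2.335. Without PNO replicate 1 *Clic6* and *Cldn2* were both at -0.09, *Folr1* went from -0.94 to -0.05, *Slc4a5* from -0.71 to -0.02 and *Otx2* was at -1.41, while *Kl* went from -1.14 to 0.25. *Aqp1* went from -0.056 to 0.19 without this pup, and *Prlr* rose to 0.82 (adjusted p = 0.283). With limma-voom 5 of the 10 turned above 0, *Ttr* (0.071) and *Kl* (1.003) among them.

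**Figure D2:**
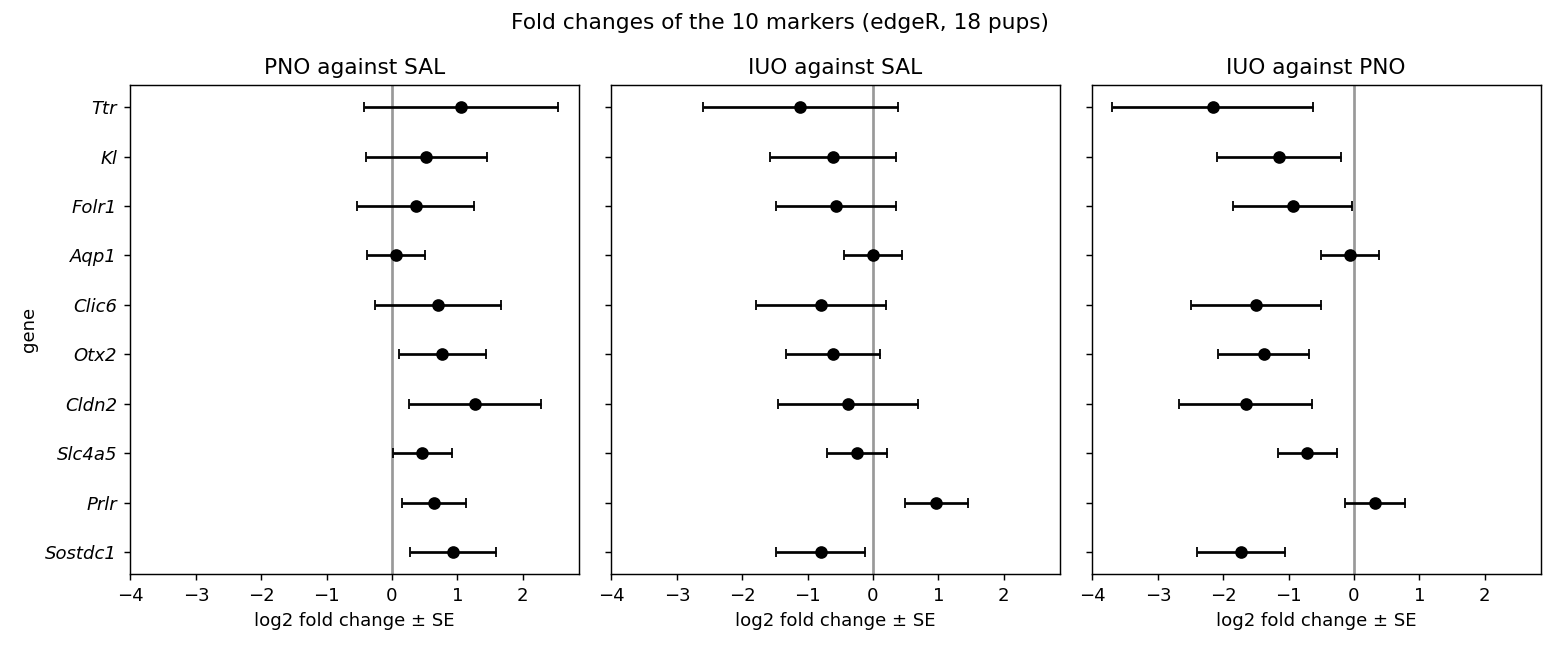
Log2 fold change of each gene with its SE (edgeR, horizontal axis) in the 3 comparisons, with a line at 0. All 10 points lie above 0 for PNO against SAL and 9 lie below 0 for IUO against PNO, with errors that reach 1.54 for *Ttr*, and none was called.

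The genes were then compared with *Ttr* pup by pup (log2 CPM, n = 18, permutation test with 100000 resamples, adjusted over the 17 relations computed with *Ttr*, 9 with genes and 8 with marker lists). Of the other 9 genes, 5 rose and fell with *Ttr*. Pearson's r was 0.942 for *Clic6* (Spearman's rho 0.936) and 0.875 for *Kl* (rho 0.897), both with a permutation p of 1e-05, the smallest these resamples can give (adjusted p = 8.5e-05). It was 0.837 for *Folr1* (rho 0.837, permutation p = 4e-05, adjusted p = 0.000227). *Cldn2* had 0.747 (rho 0.785, permutation p = 0.00039, adjusted p = 0.00166) and *Sostdc1* 0.714 (rho 0.738, permutation p = 0.0009, adjusted p = 0.00255).

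The relation did not rest on the extreme pups or on the groups for these 5 genes. Without PNO replicate 1 and IUO replicate 5, the 2 pups farthest from the median of *Ttr*, r was 0.926 for *Clic6*, 0.883 for *Kl*, 0.772 for *Folr1*, 0.781 for *Cldn2* and 0.596 for *Sostdc1*. Within groups of 6 pups r of *Clic6* was 0.961 in SAL, 0.952 in PNO and 0.94 in IUO, and r of *Kl* was 0.929, 0.932 and 0.914. The lowest within-group value among the 5 was 0.64, for *Cldn2* in IUO. Among all 15702 other genes tested, *Clic6* had the highest r to *Ttr*, *Kl* the 4th, *Folr1* the 5th, *Cldn2* the 14th and *Sostdc1* the 30th.

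The other 4 did not pass over the 18 pups. *Slc4a5* had r = 0.465 (rho 0.337, permutation p = 0.0487, adjusted p = 0.0694), and 0.296 without PNO replicate 1. *Aqp1* had r = 0.388 (rho 0.488, permutation p = 0.112, adjusted p = 0.136). Its r was 0.586 without the 2 farthest pups and then passed (permutation adjusted p = 0.0441), and within groups it was 0.596 in SAL, 0.853 in PNO and -0.117 in IUO, the group that holds the pup with 0.33 TPM of *Ttr* and 5.24 TPM of *Aqp1*. *Otx2* had r = 0.154 (rho 0.071, permutation p = 0.543, adjusted p = 0.587) and *Prlr* r = 0.123 (rho 0.259, permutation p = 0.628, adjusted p = 0.628). Within groups r of *Otx2* was 0.409 in SAL, -0.613 in PNO and 0.772 in IUO, and r of *Prlr* was -0.207, 0.625 and 0.456.

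**Figure D3:**
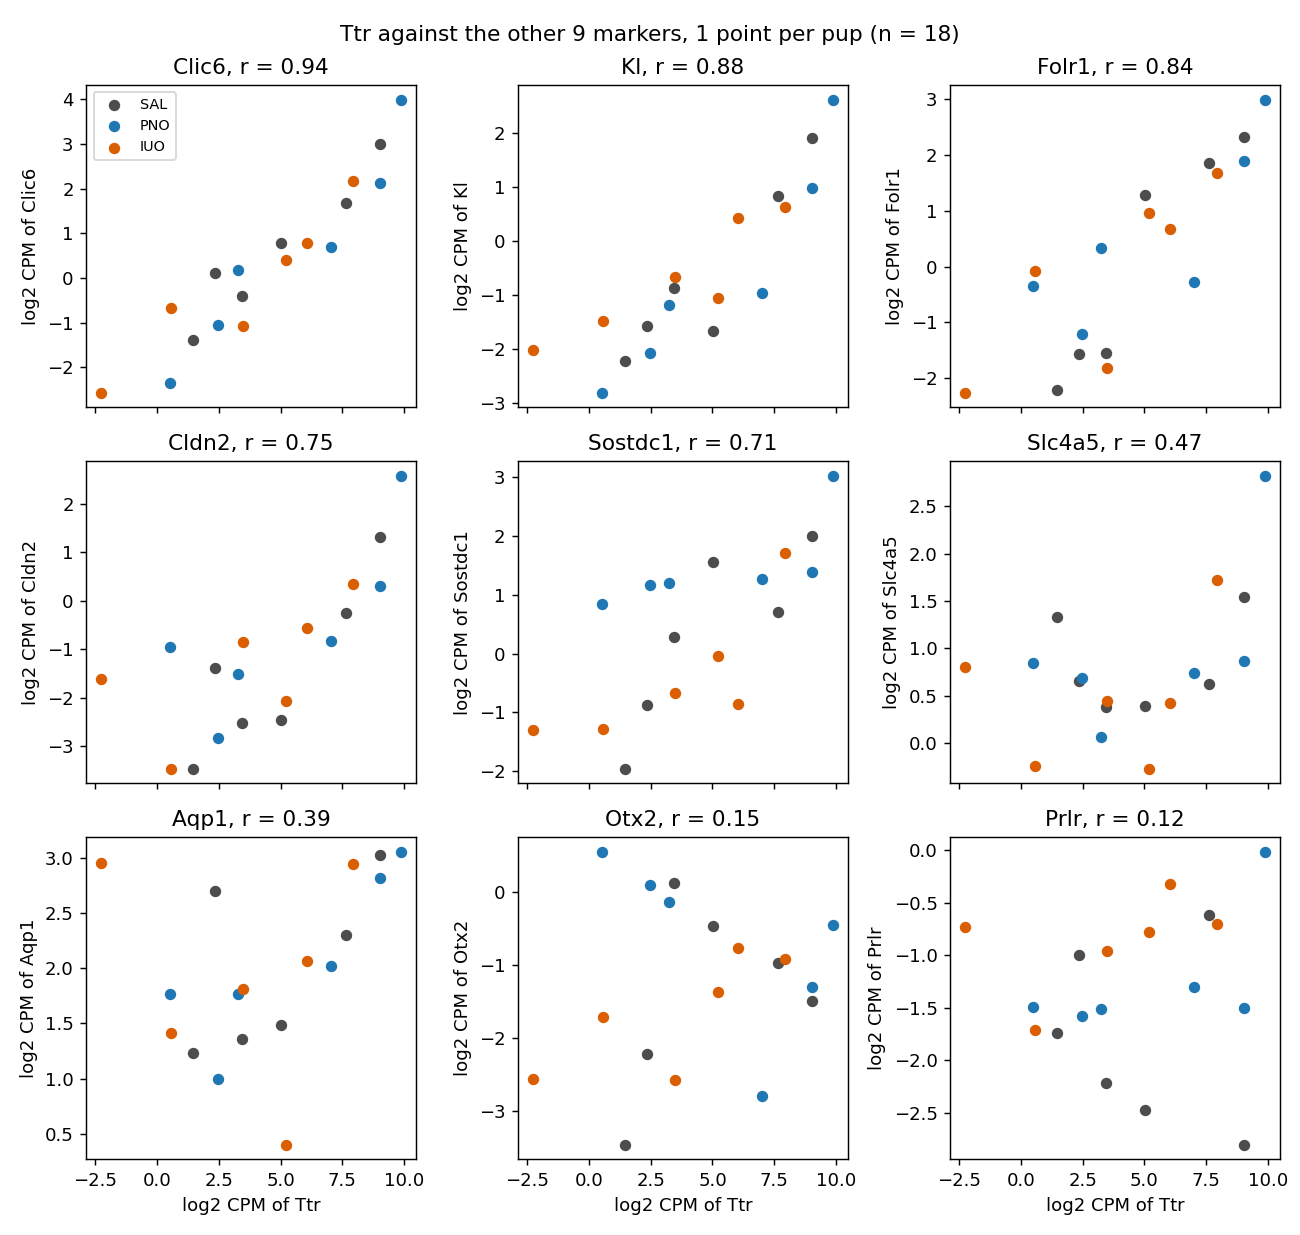
Log2 CPM of the other 9 genes (vertical axes) against log2 CPM of *Ttr* (horizontal axes), with 1 point per pup coloured by group. The points of *Clic6* and *Kl* follow a line across all 3 groups (r = 0.942 and 0.875), and those of *Otx2* and *Prlr* do not (r = 0.154 and 0.123).

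Over the 45 pairs among the 10 genes, described without a test, r ran from -0.125 to 0.942 with a median of 0.504, and without PNO replicate 1 from -0.361 to 0.94 with a median of 0.318. The 10 pairs among *Ttr*, *Kl*, *Folr1*, *Clic6* and *Cldn2* lay between 0.696 and 0.942 (median 0.842), and without PNO replicate 1 between 0.609 and 0.94 (median 0.794). The group of 5 was set apart here after its values were seen. Mean r to the other 9 genes was highest for *Cldn2* (0.632), *Kl* (0.612) and *Clic6* (0.61) and lowest for *Prlr* (0.144) and *Otx2* (0.14). All points share the depth and makeup of 1 library per pup.

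**Figure D4:**
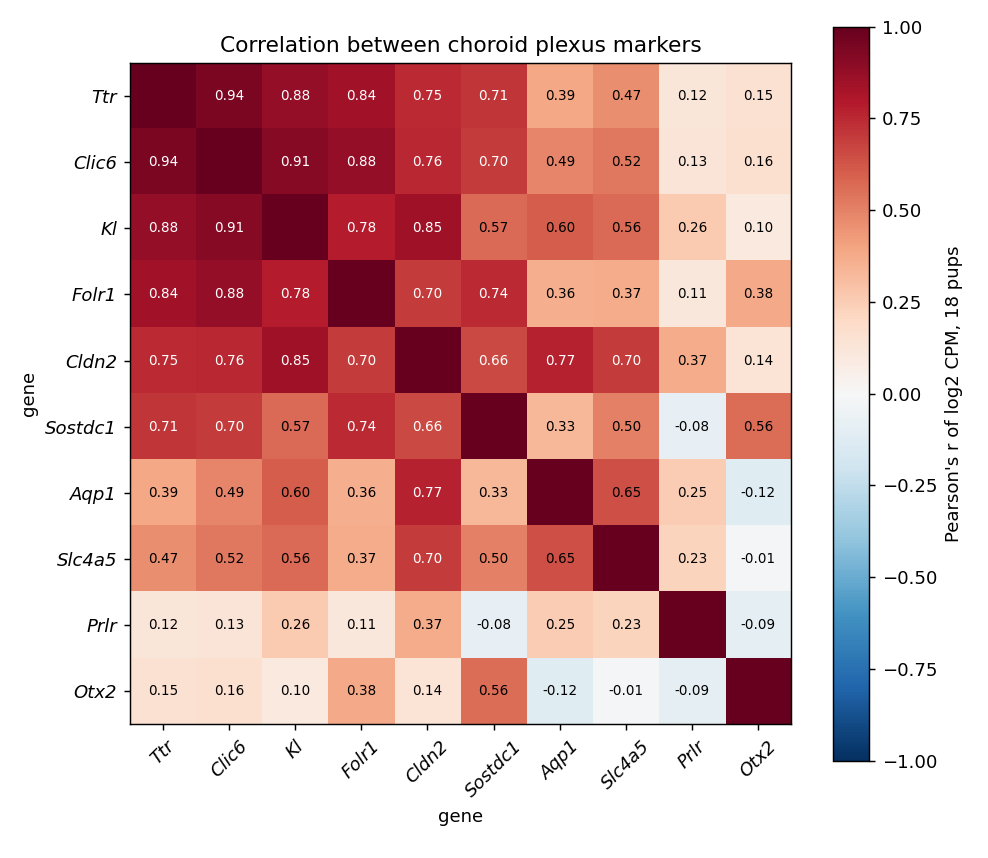
Pearson's r of log2 CPM over 18 pups for each pair of the 10 genes, with red for positive and blue for negative values. The upper left block of *Ttr*, *Clic6*, *Kl*, *Folr1* and *Cldn2* lies between 0.696 and 0.942, and the rows of *Prlr* and *Otx2* hold the lowest values, down to -0.125.

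Among genes outside the 10, those most like them by mean r over 18 pups were *Slco1a2* (0.669), *Mfrp* (0.666), *Tmem72* (0.604), *Slitrk6* (0.584), *Cfap46* (0.58), *Ccnd1* (0.562), *F5* (0.558), *Pex10* (0.552), *Msx1* (0.55) and *Clic4* (0.542). All of these had their highest level in PNO replicate 1. Without that pup *Slco1a2*, *Mfrp* and *Tmem72* were 3 of the 10 most alike. *Mfrp*, a frizzled-related membrane protein, ran from 0.03 to 13.58 TPM and had r = 0.888 to *Ttr*, the 2nd highest of all genes. *Slco1a2*, an organic anion transporter of a family of near-identical copies and so of uncertain count, had r = 0.882.

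A wider list of 25 choroid plexus genes, which holds 5 of those named above, added transporters, secreted factors and regulators. Its most abundant genes were *Igfbp2* and *Igf2*, a binding protein and its kind of ligand in insulin-like growth factor signalling, and *Enpp2*, which makes lysophosphatidic acid. *Igfbp2* lay between 69.75 and 193.22 TPM and *Igf2* between 24.52 and 111.86 TPM, with r to *Ttr* of -0.147 and -0.225. *Enpp2* reached 114.85 TPM in PNO replicate 1 (r = 0.58). The mean log2 CPM of the 25 had r = 0.715 to *Ttr* (rho 0.688, permutation p = 0.0005, adjusted p = 0.0017), and 0.78 without the 2 farthest pups. None of the 25 was called in any comparison by edgeR. At an unadjusted p under 0.05, 0 passed in PNO against SAL and in IUO against SAL, and in IUO against PNO 2 were higher and 5 lower, where 6.14% and 9.14% of all genes passed. Without PNO replicate 1, chosen after the data were seen, the latter counts were 2 and 4, where 8.44% and 12.9% of all genes passed.

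Of 12 genes of fluid secretion, the ion pumps, cotransporters and carbonic anhydrases that drive water into the ventricles and that neurons and glia express too, none was called by edgeR. In IUO against PNO 6 of 12 were lower at an unadjusted p under 0.05, where 9.14% of all genes were, and in PNO against SAL 2 were higher, where 1.89% were. Without PNO replicate 1 the counts were 6 of 12 (12.9% of all genes) and 1 of 12 (4.1% of all genes). In IUO against PNO 2 of 12 then also passed as higher (8.44% of all genes), against 0 with all pups. The oligodendrocyte markers had fold changes of the same sign in both comparisons, and their part in these values was not tested. The smallest adjusted p was 0.0723, for the carbonic anhydrase *Car12* in IUO against PNO (-1.41 ± 0.30, SE), which was -1.10 ± 0.26 (adjusted p = 0.0833) without PNO replicate 1. *Atp1b1*, a subunit of the sodium pump, was the most abundant, at a mean of 1740 TPM over all pups, and the carbonic anhydrase *Car2* had 65.36 TPM. The list's mean log2 CPM had r = 0.578 to *Ttr* (rho 0.538, permutation p = 0.00922, adjusted p = 0.0196), and 0.39 without the 2 farthest pups, and it no longer passed without PNO replicate 1 (r = 0.473, adjusted p = 0.105).

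Markers of other cells moved with *Ttr* to differing degrees. The ventricle-lining ependymal cells, represented by 8 tested markers led by *Rarres2*, *Dynlrb2* and *Ccdc153*, had r = 0.635 (rho 0.531, permutation p = 0.00537, adjusted p = 0.013), and 0.54 without the 2 farthest pups. The summed level of the 9 ependymal markers found, tested or not, was between 21.22 and 102.93 TPM. Of the 8 tested, 0 passed an unadjusted p under 0.05 in any comparison. Cortical excitatory neuron markers had r = -0.527 (rho -0.569, permutation p = 0.0232, adjusted p = 0.0438), and -0.421 without the 2 farthest pups, and no longer passed without PNO replicate 1 (r = -0.506, adjusted p = 0.0799). The 10 markers of striatal neurons, led by *Ppp1r1b*, *Penk* and *Tac1*, had r = 0.469 (rho 0.519, permutation p = 0.049, adjusted p = 0.0694), with 0.849 in SAL, 0.899 in PNO and 0.12 in IUO. None of the 10 passed an unadjusted p under 0.05 in any comparison. By sign, 9 of 10 were below 0 in PNO against SAL (median -0.25, and -0.435 without PNO replicate 1), all 10 were above 0 in IUO against SAL (median 0.456) and all 10 in IUO against PNO (median 0.734, and 0.951 without PNO replicate 1), and their part in the values of the choroid plexus genes was not tested.

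The 10 markers of oligodendrocytes, among them *Mbp* and *Cnp*, had r = 0.514 to *Ttr* (rho 0.437, permutation p = 0.0292, adjusted p = 0.0496), which fell to 0.273 without the 2 farthest pups and to 0.41 (adjusted p = 0.159) without PNO replicate 1, and so rests on them. All 10 were lower in IUO than in PNO at an unadjusted p under 0.05, against 9.14% of all genes, with a median log2 fold change of -1.37, and none was called by edgeR. Without PNO replicate 1 all 10 again passed, against 12.9% of all genes, with a median of -1.17. In PNO against SAL 2 of 10 were higher at an unadjusted p under 0.05, against 1.89% of all genes (0 without PNO replicate 1, against 4.1%). In IUO against SAL 1 of 10 was lower, against 3.87% of all genes. Their summed level was 1755 to 4030 TPM in IUO and 2271 to 11740 TPM in PNO, the highest value being that of PNO replicate 1, and their part in the IUO and PNO values of the choroid plexus genes was not tested. Markers of endothelial cells (8, led by *Cldn5*, *Esam* and *Cdh5*) had r = 0.15 (rho 0.088, permutation p = 0.553, adjusted p = 0.587) and those of meningeal fibroblasts r = -0.419 (rho -0.397, permutation p = 0.0818, adjusted p = 0.107). Among the markers of these lists and of the wider choroid plexus list, *Tmem212* (ependymal) and *Cldn3* reached 0 TPM in at least 1 pup.

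**Figure D5:**
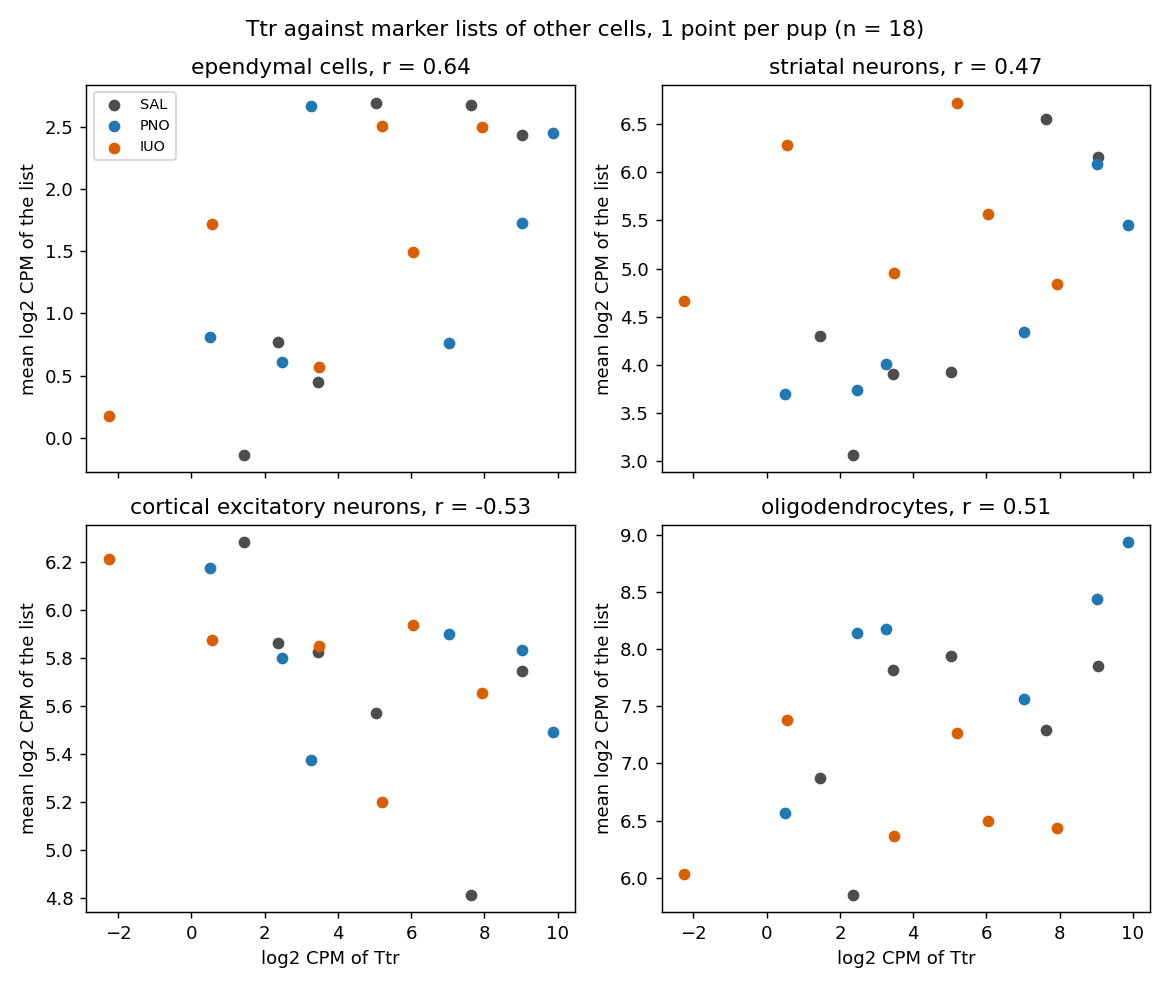
Mean log2 CPM of the markers of ependymal cells, striatal neurons, cortical excitatory neurons and oligodendrocytes (vertical axes) against log2 CPM of *Ttr* (horizontal axes), with 1 point per pup coloured by group. Ependymal markers rise with *Ttr* (r = 0.635) and cortical excitatory markers fall (r = -0.527).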

How the data were processed

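RNA-seq was made from total PFC RNA of 18 pups, 6 per group, and groups and replicate numbers were taken from the sample titles. For each pup the authors deposited expected counts per gene, unnormalized, with TPM and FPKM values scaled to gene length and library. The deposited FPKM values were not used. The aligner, quantifier and genome build are not given in the sources used here, and the authors' test for differential expression is not either.

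After rounding of the expected counts, edgeR 4.0.16 (R 4.3.3) fitted 1 model over 18 pups (filterByExpr by group, TMM scaling, glmQLFit, then a two-sided glmQLFTest), with Benjamini-Hochberg adjustment over 15703 genes. Summed counts per pup had a median of 22726306, and no 2 pups had identical values. The procedure was tested on simulated data. Log2 CPM used a prior count of 2, and correlations and exact permutation tests used it. TPM served for levels between genes. A permutation test of r used 100000 resamples. Alternatives were DESeq2 1.42.0, limma-voom (limma 3.58.1), other scaling and filters, only the 12 pups compared, a replicate block, leaving out each pup, and log2(TPM + 0.1).

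The 10 genes and all marker lists were chosen with earlier results of these data known. Named genes are these 10, the 10 genes with the highest mean r to them, and from each list the 3 with the highest mean TPM, of which some are not reported here. *Car12*, *Tmem212* and *Cldn3* were added after their values were seen. *Slco1a2* was matched to Slco1a5, *Car2* and *Car12* to Ca2 and Ca12, through RefSeq synonyms, and the synonym Slco1a2 is also borne by Slco1a4 there. Foxj1, Col1a2, Pecam1 and Ly6c1 found no row and were not analysed here. Python 3.11.15, numpy 2.4.6, pandas 2.3.3, scipy 1.17.1 and matplotlib 3.10.9 were used.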

Additional observations from a re-analysis of the deposited data

Results flagged for a closer look

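In the PNO group, PNO replicate 1 stood far above the other 5 pups for 3 of the 10 choroid plexus genes, by the gap to the next pup as a share of the whole range of log2 CPM (Dixon's criterion for 6 samples). The share was 0.711 for *Slc4a5*, where this pup was at 2.83 and the next at 0.86. It was 0.821 for *Prlr* (-0.01 against -1.30) and 0.754 for *Sostdc1* (3.02 against 1.38). Chance gives such a value in about 1 of 20 groups, and 30 groups (10 genes in 3 groups) were examined.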

How the results depend on the processing

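With limma-voom with quality weights 1 of the 10 genes (*Sostdc1*) was called in IUO against PNO, where this tool called 12.9% of all genes (2028), and at an unadjusted p under 0.05 also 1. Other alternatives called none. By limma-voom the log2 fold change against SAL in PNO reversed to -0.95 for *Ttr*, -1.002 for *Kl*, -0.19 for *Aqp1*, -0.71 for *Clic6* and -0.10 for *Slc4a5*, and in IUO to 0.001 for *Kl* and 0.66 for *Cldn2*. In IUO against PNO it reversed to 0.071 for *Ttr*, 1.003 for *Kl*, 0.29 for *Aqp1*, 0.08 for *Clic6* and 0.44 for *Cldn2*. Other values kept their sign but moved by over 1.5 times in the fold itself, not its log2. The log2 fold change was then 0.22 for *Cldn2* in PNO against SAL, 1.66 for *Prlr* in IUO against SAL (adjusted p = 0.0671) and -0.084 for *Folr1* in IUO against PNO. Smaller moves of the fold included *Folr1*, from 0.37 to 0.038 in PNO against SAL and from -0.57 to -0.046 in IUO against SAL. *Otx2* likewise went from -0.61 to -0.29 in IUO against SAL. The exact permutation difference had the other sign for *Clic6* in PNO against SAL (-0.031) and for *Cldn2* (0.10) and *Aqp1* (-0.084) in IUO against SAL. *Aqp1* in IUO against SAL, at 0.001, also became -0.004 with DESeq2 size factors, -0.022 with no library size normalization, -0.008 by DESeq2, -0.007 with no filter, -0.007 with a filter of 1 CPM and -0.006 with only the 12 pups. The cause was not tested. With the last 2 settings some of the 10 genes failed the filter, and of the fold changes that remained 20 kept their direction.

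Same-numbered pups deviated together in 4, 1 and 3 of 6 pairs (r over 0.1) for PNO with SAL, IUO with SAL and IUO with PNO. Mean r was 0.232, -0.027 and 0.063, and a pup correlated best with its own number in 2, 0 and 2 of 6. The labels do not say what the numbers stand for, so this check cannot tell whether they pair the pups. With the replicate block 0, 0 and 0 of the 10 were called (0, 0 and 6 of all genes). Under the block, IUO against SAL became 0.38 for *Ttr*, 0.29 for *Kl*, 0.067 for *Folr1* and 0.54 for *Cldn2*, and IUO against PNO 0.087 for *Kl*, and without a change of sign -0.59 for *Ttr*, -0.33 for *Folr1*, -0.54 for *Clic6* and -0.71 for *Cldn2*.

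Leaving out each pup in turn called none of the 10. Values that changed sign did so on leaving out PNO replicate 1 in PNO against SAL, except for *Aqp1*, whose sign changed on leaving out any of 5 pups in each comparison, and otherwise on leaving out the pup given in parentheses. In PNO against SAL they ranged from -0.19 to 0.31 for *Aqp1*, -0.31 to 2.53 for *Cldn2*, -0.71 to 1.55 for *Clic6*, -0.52 to 0.91 for *Folr1*, -0.87 to 1.46 for *Kl* and -0.24 to 0.64 for *Slc4a5*. In IUO against SAL they ranged from -0.23 to 0.25 for *Aqp1*, -0.96 to 0.88 for *Cldn2* (SAL replicate 3), -1.64 to 0.057 for *Clic6* (SAL replicate 3), -0.98 to 0.32 for *Kl* (SAL replicate 3) and -2.48 to 0.26 for *Ttr* (SAL replicate 3). In IUO against PNO they ranged from -0.29 to 0.19 for *Aqp1* and -1.51 to 0.25 for *Kl* (PNO replicate 1).

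Within 6 pups, 2, 2 and 0 of the 9 relations with *Ttr* passed in SAL, PNO and IUO, against 5 over 18 pups, from fewer pups. Reversed values of r were -0.117 for *Aqp1* in IUO, -0.613 for *Otx2* in PNO, -0.061 for *Otx2* without the 2 farthest pups, -0.207 for *Prlr* in SAL, -0.055 for *Prlr* without PNO replicate 1 (chosen after seeing the data), 0.316 for meningeal markers in SAL and -0.029 for endothelial markers on log2(TPM + 0.1). Over all genes IUO against PNO called 10, but 19 with no normalization, 436 by DESeq2, 2028 by limma-voom, 72 with only the 12 pups, 14 with the 1 CPM filter and 6 with the block, and IUO against SAL 49 by DESeq2 and 43 by limma-voom against 0. Counts under about 25 per pup limit *Prlr*, *Otx2* and most values of *Cldn2* and *Kl*. They also limit many values of *Folr1* and *Clic6*, whose lowest counts were 3 and 2. *Sostdc1* is limited in the same way in IUO replicates 1 to 5, with 6, 18, 14, 11 and 8 counts.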
